A study of Mus musculus with 32 samples.

Results

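The response to interleukin-1β (IL-1β) that remained after Cre-mediated deletion of Ldha was measured by RNA sequencing in 4 of the 32 libraries of the series. Those 4 were every library labelled LDHA flox that had received Cre virus, 2 with IL-1β and 2 without. All were primary sternal chondrocytes of C57BL/6 background carrying floxed Ldha alleles (Ldha f/f). The series compared chondrocytes of several genotypes with and without IL-1β to ask how lactate metabolism bears on the inflammatory response of cartilage. Cells of newborn pups were taken without regard to sex, cultured unpassaged, infected for 24 h with an adenovirus carrying Cre and eGFP, and then given IL-1β at 10 ng/mL for 24 h (Cre + IL-1β) or left without it (Cre). The nearest comparison was the 4 Ldha f/f libraries that had received an adenovirus carrying eGFP alone, 2 without (GFP) and 2 with IL-1β (GFP + IL-1β). A second comparison used 8 libraries of chondrocytes with floxed Nampt alleles (Nampt f/f; labelled NAMPT flox), 2 for each of the same 4 conditions. Within Ldha f/f, an effect of the Cre virus and an effect of the loss of Ldha cannot be told apart, since every Cre library had both. Neither cultures nor animals are named in the labels, so every p-value below measures the spread between these libraries, which may be technical.

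IL-1β binds its receptor on chondrocytes and signals through MyD88 to NF-κB and to the kinases that feed AP-1. The target genes include chemokines, acute-phase proteins and the metalloproteinases that cut cartilage matrix, while the genes of the matrix itself, type II collagen and aggrecan, are turned down. Many of these targets need a further factor, IκB-ζ, which is encoded by Nfkbiz and is itself induced by NF-κB. LDHA is the lactate dehydrogenase subunit that favours conversion of pyruvate to lactate, and chondrocytes, which live at low oxygen, depend largely on glycolysis for energy.

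Ldha itself (chromosome 7, 46841475 to 46855627, GRCm38, plus strand) was the check on the labels. Its level was 947 and 898 CPM (the read count scaled to the library total) in the GFP libraries and 1591 and 1608 CPM in GFP + IL-1β, against 120.1 and 114 CPM in Cre and 85.2 and 76.1 CPM in Cre + IL-1β. All 4 Cre libraries lay below all 4 GFP libraries. IL-1β raised Ldha in GFP libraries by 0.80 ± 0.0559 (log2 fold change ± SE), whereas the remaining Ldha reads fell in Cre libraries by 0.53 ± 0.0585 on the log2 scale (edgeR quasi-likelihood test, Benjamini-Hochberg adjusted p = 8.57e-07). The 8 libraries held 18237872 to 36421810 counted reads, of which 1 gene, Gm26917, took 6.83% to 9.14%.

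The libraries carried the markers of chondrocytes. All 10 chondrocyte markers tested fell with IL-1β under both viruses, and their summed level was 68380 to 69097 CPM in GFP, 25308 to 26292 CPM in GFP + IL-1β, 48866 to 49299 CPM in Cre and 14022 to 14940 CPM in Cre + IL-1β. Markers of macrophages and other leukocytes summed to 22.9 to 23.7 CPM in GFP, 42.4 to 45.5 CPM in GFP + IL-1β, 20.6 to 22.1 CPM in Cre and 31.96 to 34.6 CPM in Cre + IL-1β, and 4 of 10 of them rose under both viruses. Fibroblast and perichondrium markers summed to 5962 to 6140 CPM in GFP, 4487 to 4742 CPM in GFP + IL-1β, 5221 to 5402 CPM in Cre and 2926 to 2978 CPM in Cre + IL-1β. Endothelial markers were low, at 3.38 to 3.61 CPM in GFP, 4.84 to 5.47 CPM in GFP + IL-1β, 10.3 to 11.2 CPM in Cre and 17.6 to 22.1 CPM in Cre + IL-1β, with Kdr accounting for most of the sum in the Cre libraries while Pecam1 stayed at 0.879 and 0.925 CPM in Cre and 1.21 and 0.629 CPM in Cre + IL-1β. Skeletal muscle markers summed to between 23.1 and 87.9 CPM and osteoblast markers to between 9.81 and 35.9 CPM over the 8 libraries, and Hba-a1, the red cell marker tested, reached at most 2.74 CPM. The part of other cells in the results that follow was not tested. In bulk libraries such as these, fewer cells of a type and less RNA per cell cannot be told apart.

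Most genes that changed with IL-1β under GFP virus also changed after Cre. Of 15880 genes tested, 7269 changed with IL-1β in Cre libraries (45.8%), 3929 higher (24.7%) and 3340 lower (21%), while 6023 changed in GFP libraries (37.9%), 3070 higher (19.3%) and 2953 lower (18.6%). The split into higher and lower depended on scaling and filtering. Without TMM scaling 61.8% of the GFP calls and 63.8% of the Cre calls were higher, against 51% and 54.1% with it. Lower calls outnumbered higher ones after Cre with edgeR's own expression filter (47.2% higher), in the 4 Cre libraries fitted alone (48.8%), without Gm26917 (48%), with all 32 libraries (46.5%) and without GFP + IL-1β replicate 1 (3332 higher, 3625 lower). Of the 6023 genes that changed in GFP libraries, 3715 (61.7%) also changed in Cre libraries with the same sign, 1907 of the 3070 that rose (62.1%) and 1808 of the 2953 that fell (61.2%). The size of the response was then compared by an interaction test, Cre response minus GFP response, and 3374 genes differed (21.2%), 1703 with a difference above 0 (10.7%) and 1671 below 0 (10.5%). Both library sets gave the reported sign for 7264 of the 7269 Cre calls and for 3373 of the 3374 differences (80.9% and 72.5% of all genes tested had 1 sign in both sets). The calls were made on these same sets, so the agreement follows largely from the calling and is not a replication. The count of differences rested on how the spread was estimated. It was 1825 without the set block, 2156 without GFP + IL-1β replicate 1 (when GFP calls were 3997), 2195 without Cre replicate 1 and 2243 without Cre replicate 2.

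With all 32 libraries sharing 1 estimate of the spread, 3129 genes changed after Cre, 1414 after GFP and 312 differed. Of the 112 genes followed by name, 102 differences were called in the 8 libraries and 37 in the 32. Differences of Cxcl1 (-2.20, adjusted p = 0.851), Mmp3 (-1.91, 0.909), Mmp13 (-1.70, 0.716), Nfkbiz (-1.43, 0.743), Il6 (-1.80, 0.882), Lcn2 (-0.77, 0.949), Sod2 (-1.54, 0.616), Matn3 (-1.73, 0.231), Slc16a1 (-1.26, 0.342) and Lama5 (2.502, 0.118) were then not called. Those of Hapln1 (-2.47, 0.000103), Slc7a11 (-2.13, 0.0184), Fem1a (-2.29, 5.29e-05), Tinagl1 (2.20, 0.0203), Itga3 (1.83, 8.49e-07), Tnfrsf11b (-2.03, 0.0114), Sox5 (-1.35, 0.00918) and Krt7 (5.44, 0.00233) were called in both. The estimates themselves moved little. Calls given in the rest of the text are those of the 8 Ldha f/f libraries. Counts of list members below stand beside these shares of all genes: 24.7% higher and 21% lower after Cre, and 19.3% and 18.6% after GFP. For the difference the shares were 10.7% above 0 and 10.5% below. With all 32 libraries in 1 fit, fewer list members had a called difference. Those called were 4 redox enzymes, 4 chondrocyte transcription factor and hypertrophy genes and 2 proteases, all below 0. NF-κB members, heat shock genes and integrated stress response genes had 1 each, also below 0. Keratins and laminins had 4, above 0.

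**Figure D1:**
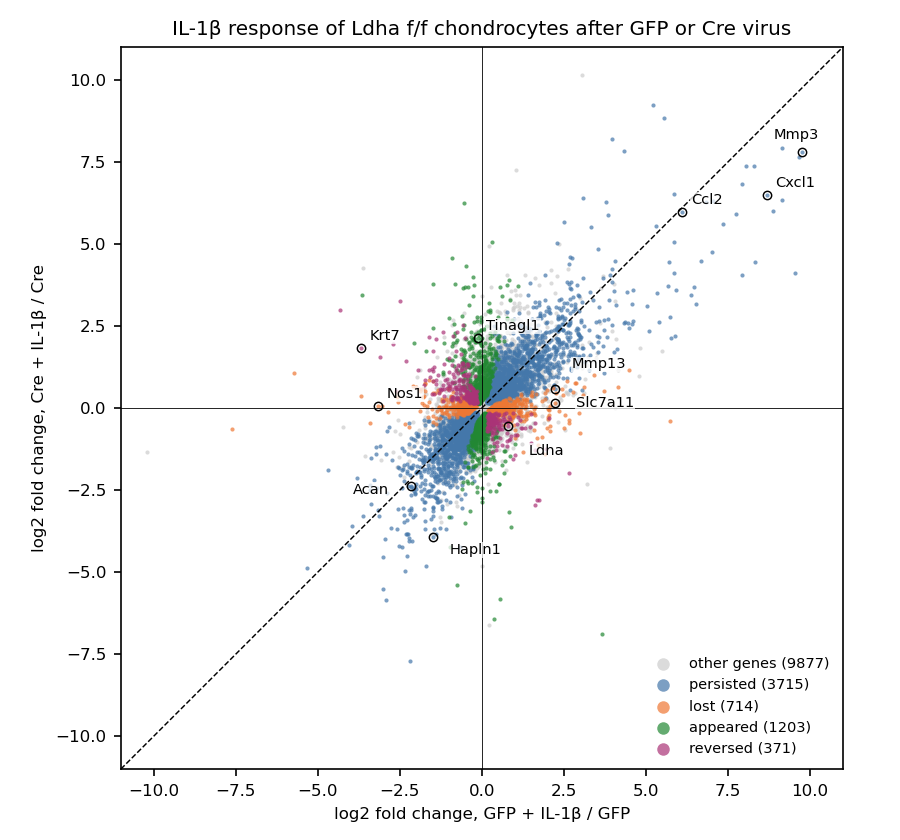
Log2 response to IL-1β of each of the 15880 genes tested in Ldha f/f chondrocytes, GFP virus on the horizontal axis and Cre virus on the vertical axis, coloured by class, with the diagonal marking equal responses. Persisting genes lie along the diagonal, lost genes along the horizontal axis, appearing genes along the vertical axis and reversed genes in the upper left and lower right, where Krt7 is at -3.68 and 1.82.

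The genes were sorted by these tests into classes, with the share of the 15880 genes in each given in brackets. A response persisted where both viruses gave a call of 1 sign, and it was weaker or stronger where the interaction was also called. Persisting responses whose difference was not called numbered 1381 that rose (8.7%), with a median log2 change of 0.64 after Cre and 0.63 after GFP, and 1313 that fell (8.27%), with -0.56 and -0.50. A weaker response remained for 271 genes that rose (1.71%; median 0.70 after Cre against 1.46 after GFP) and 126 that fell (0.793%; -0.51 against -1.14). A stronger response was found for 255 that rose (1.61%; 1.22 against 0.50) and 369 that fell (2.32%; -1.28 against -0.58). The response was lost, called under GFP alone with the interaction called, for 714 genes, 372 that had risen (2.34%) and 342 that had fallen (2.15%) under GFP. It appeared, called under Cre alone with the interaction called, for 1203 genes, 725 higher (4.57%) and 478 lower (3.01%). It reversed for 371 genes, 228 higher (1.44%) and 143 lower (0.901%) after Cre. Genes called under 1 virus alone without a called interaction, 648 higher and 575 lower for GFP and 1069 and 911 for Cre, were placed in neither the lost nor the appearing class.

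Genes picked for a change in the Ldha f/f GFP libraries favour the response of those libraries. Genes were therefore also picked on separate libraries, those of Nampt f/f given GFP virus, where IL-1β changed 46.4% of 16136 genes (22.9% higher, 23.5% lower). That choice still favours responses under GFP virus and leaves out genes that changed only after Cre. The counts toward and away from 0 that follow therefore cannot show by themselves that responses shrank after Cre. The 1167 genes that IL-1β raised there by at least 1 log2 had a median log2 change of 1.38 in Ldha f/f GFP libraries and 1.14 in Ldha f/f Cre libraries, and 891 and 770 of them rose by the test. Of these genes 293 differed toward 0 after Cre and 79 away from 0. Over the 15525 genes tested in both lines 1659 differences were below 0 and 1698 above, counted without regard to the direction of the response. The 107 genes raised by at least 3 log2 had medians of 3.86 after GFP and 3.07 after Cre, with 40 differing toward 0 and 5 away. For the 587 genes lowered by at least 1 log2 the medians were -1.28 after GFP and -1.13 after Cre, with 152 differing toward 0 and 111 away.

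Chemokines kept a large part of their induction. Of 20 chemokine genes tested, 13 rose and 2 fell after Cre, against 15 and 1 after GFP, and the median log2 change was 1.63 against 2.23 (0.03 and 0.00 over all genes). The difference was below 0 for 8 of them and above 0 for 1. With all 32 libraries in 1 fit, 7 rose and 1 fell after Cre, against 7 and 0 after GFP. The difference was then called below 0 for 0 and above 0 for 1, with medians of 1.66 after Cre and 2.24 after GFP. Ccl2, the monocyte chemoattractant, was 3.93 and 5.09 CPM in GFP, 261 and 367 CPM in GFP + IL-1β, 6.88 and 7.96 CPM in Cre and 404 and 539 CPM in Cre + IL-1β. The treated libraries lay far above the untreated under either virus, and the highest levels were those of Cre + IL-1β. The Ccl2 log2 response was 5.97 ± 0.0791 after Cre and 6.11 after GFP, a difference of -0.14 ± 0.118 (adjusted p = 0.449).

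Cxcl1, a neutrophil chemoattractant, stood at 0.976 and 1.04 CPM in GFP and 1.24 and 0.833 CPM in Cre, and reached 397 and 429 CPM in GFP + IL-1β but 96.4 and 96.9 CPM in Cre + IL-1β. Its untreated libraries overlapped between viruses and its treated libraries did not. The response of Cxcl1 persisted but was weaker, 6.48 ± 0.111 against 8.67 on the log2 scale (difference -2.20, adjusted p = 4.39e-06). Cxcl16, a membrane-bound chemokine, was the exception with a difference above 0. It was 2.04 and 1.83 CPM in GFP, 3.50 and 2.98 CPM in GFP + IL-1β, 3.34 and 3.70 CPM in Cre and 25.8 and 27.9 CPM in Cre + IL-1β, a log2 response of 2.94 after Cre against 0.75 after GFP.

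3 promoters of persisting but weaker genes are shown because they carry the letters of the factors through which IL-1β is known to act. They were read from RefSeq on GRCm38, plus strand, 250 bases ending at the annotated start, with the motif in capitals. That of Cxcl1 (chr5:90890995-90891244) holds a κB motif, searched as GGGA, any 2 bases and TTCC on both strands, with 2 overlapping matches 71 bases before the start. Those of Mmp13 (chr9:7272264-7272513) and Mmp3 (chr9:7445572-7445821), which encode collagenase-3 and stromelysin-1, each hold 1 AP-1 motif, searched as TGANTCA on both strands, 35 and 46 bases before the start.
Cxcl1: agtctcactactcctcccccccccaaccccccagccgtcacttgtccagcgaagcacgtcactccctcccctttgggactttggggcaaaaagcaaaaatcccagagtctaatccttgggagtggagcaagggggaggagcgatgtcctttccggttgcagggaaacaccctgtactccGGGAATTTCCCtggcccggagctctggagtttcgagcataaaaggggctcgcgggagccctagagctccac
Mmp13: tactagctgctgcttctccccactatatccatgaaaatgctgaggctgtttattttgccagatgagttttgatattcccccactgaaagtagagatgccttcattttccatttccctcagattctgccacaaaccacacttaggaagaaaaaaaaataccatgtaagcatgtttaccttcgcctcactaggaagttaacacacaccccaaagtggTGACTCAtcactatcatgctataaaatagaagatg
Mmp3: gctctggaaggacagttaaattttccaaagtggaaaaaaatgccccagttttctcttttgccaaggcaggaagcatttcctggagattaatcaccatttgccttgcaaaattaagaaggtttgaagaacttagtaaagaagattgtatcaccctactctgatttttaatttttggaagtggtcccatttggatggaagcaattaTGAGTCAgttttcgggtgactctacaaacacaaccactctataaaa
A promoter was matched for 10082 of the 15880 genes, of which 1.24% held the κB motif and 4.35% the AP-1 motif. Among the 188 matched genes whose rise persisted weaker, 8 (4.26%) held the κB motif and 22 (11.7%) the AP-1 motif. The shares were 2.1% and 3.36% for the 238 whose rise was lost, 1.57% and 3.94% for the 508 whose rise appeared, and 1.86% and 3.73% for the 161 whose rise was stronger. For the 937 whose rise persisted without a called difference they were 1.92% and 5.76%. The antioxidant response element, searched as TGACNNNGC, which can overlap an AP-1 match, was in 17.6% of the weaker and 11.8% of the lost promoters against 12.2% of all. These matches are descriptions of letters and not sites of binding.

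Fewer acute-phase and complement genes rose after Cre than after GFP. Of 41 tested, 21 rose and 1 fell after Cre, and 29 rose and 2 fell after GFP. The median log2 change was 0.95 against 1.48, and 17 differed below 0 against 1 above. With all 32 libraries in 1 fit, 6 rose after Cre and 11 after GFP, and 0 differences were called. The medians were then 0.908 against 1.485. Lcn2, which binds siderophores, was 25.5 and 28.8 CPM in GFP, 3566 and 3615 CPM in GFP + IL-1β, 21.4 and 21.2 CPM in Cre and 1619 and 1758 CPM in Cre + IL-1β. All treated libraries lay above all untreated ones, and those with Cre lay below those with GFP. The log2 response of Lcn2 was 6.31 ± 0.0724 after Cre and 7.05 after GFP (difference -0.74, adjusted p = 7.17e-06). Log2 responses after Cre and GFP were 7.94 against 9.15 for Saa3, a serum amyloid A protein, 7.38 against 8.30 for complement C3, 6.81 against 7.94 for haptoglobin, 4.48 against 6.67 for Lbp, the lipopolysaccharide-binding protein, and 6.29 against 6.84 for Steap4, a metalloreductase whose responses did not differ by the test. Untreated means of Lbp and C3 were higher in Cre than in GFP, and treated means were lower. Lbp averaged 2.35 CPM in GFP, 238 CPM in GFP + IL-1β, 6.55 CPM in Cre and 145 CPM in Cre + IL-1β. C3 averaged 1.55, 498, 2.26 and 376 CPM in the same order. The part of the untreated level in their smaller responses was not tested. Ptx3, a soluble pattern-recognition protein, and Tlr4, the lipopolysaccharide receptor, lost their response (0.07 against 1.35 and -0.13 against 1.12).

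**Figure D2:**
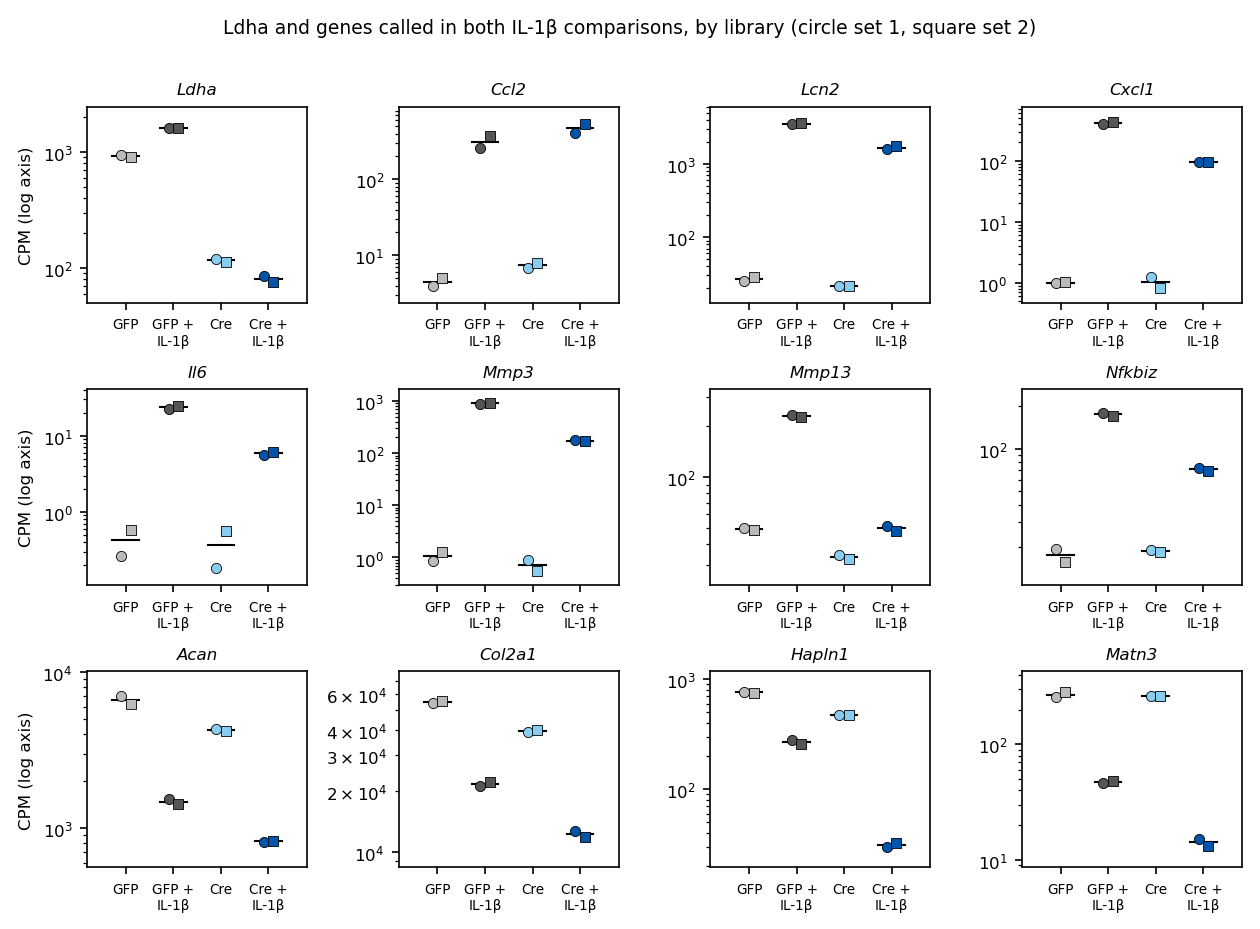
CPM in each of the 8 Ldha f/f libraries (points) with the group means (horizontal lines) for Ldha and for genes called with IL-1β under both viruses, on a log axis. Treated libraries lie apart from untreated ones under both viruses, and for Cxcl1 and Mmp3 the Cre + IL-1β libraries lie below the GFP + IL-1β libraries.

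Among 42 cytokine and receptor genes tested, 25 rose and 6 fell after Cre, against 30 and 3 after GFP. The difference was below 0 for 16 and above 0 for 4. With all 32 libraries in 1 fit it was called below 0 for 1 and above 0 for 0. Il6 was 0.266 and 0.584 CPM in GFP, 22.7 and 24.6 CPM in GFP + IL-1β, 0.182 and 0.555 CPM in Cre and 5.51 and 6.19 CPM in Cre + IL-1β. The untreated levels rested on 6 to 14 reads a library and overlapped between viruses, whereas the treated levels did not. The log2 response of Il6 was 4.10 ± 0.305 after Cre and 5.86 ± 0.254 after GFP, a difference of -1.75 ± 0.546 (adjusted p = 0.0294). That difference was no longer called by DESeq2 (adjusted p = 0.112), without the set block (0.0976), or without GFP replicate 1 (0.147), GFP + IL-1β replicate 1 (0.101) or Cre replicate 2 (-0.99, 0.436). Lif, an Il6-family cytokine, responded at 2.69 against 3.71, and the receptor chains Il6st, shared by that family, and Il1r1, the IL-1 receptor itself, at 0.40 against 1.36 and 0.63 against 1.18. Osmr, the oncostatin M receptor, lost its rise (0.00 against 0.99), while Tnfrsf1b, a TNF receptor, rose by 1.44 after Cre and 1.45 after GFP.

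NF-κB members and their feedback inhibitors were called in nearly equal numbers under both viruses, but the size of the response often differed. Of 63 tested, 48 rose and 5 fell after Cre against 49 and 5 after GFP, with median log2 changes of 0.66 against 0.80. The difference was called for 27 of them, 18 below 0 and 9 above (21.2% of all genes in either direction), with 12 weaker, 8 stronger, 3 lost and 3 reversed. The immediate inhibitors Nfkbia, encoding IκBα, and Tnfaip3, encoding A20, had responses of 2.57 against 2.44 and 2.49 against 2.35, and neither difference was called (0.13 ± 0.116 and 0.15 ± 0.247). Nfkbiz, encoding IκB-ζ, had a weaker response. It was 19.5 and 15.7 CPM in GFP, 181 and 171 CPM in GFP + IL-1β, 18.98 and 18.4 CPM in Cre and 73.1 and 69.9 CPM in Cre + IL-1β, so that the untreated libraries overlapped and the treated ones did not. The log2 response was 1.94 ± 0.0772 after Cre against 3.31 after GFP (difference -1.38 ± 0.108, adjusted p = 7.88e-08). Bcl3, another atypical IκB protein, was also weaker (2.65 against 3.56), whereas Tnip1, a partner of A20, and Tnfaip2 were stronger (1.71 against 0.69 and 3.08 against 2.27). Myd88, the adaptor of the IL-1 receptor, and Ripk2 lost their rise (-0.17 against 0.43 and 0.08 against 0.97).

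The matrix proteases split by gene. Of 53 proteases and inhibitors tested, 29 rose and 12 fell after Cre, 33 persisted (8 weaker, 6 stronger), 6 were lost, 3 appeared and 2 reversed. Mmp13, the collagenase that cuts type II collagen, was 49.6 and 48.5 CPM in GFP, 232 and 227 CPM in GFP + IL-1β, 34.2 and 32.6 CPM in Cre and 51.3 and 47.97 CPM in Cre + IL-1β. Its treated Cre libraries overlapped the untreated GFP libraries. The log2 response was smaller, 0.57 ± 0.0637 against 2.23 ± 0.0601 (difference -1.66 ± 0.0867, adjusted p = 7.92e-10). Mmp3 was 0.858 and 1.25 CPM in GFP, 891 and 898 CPM in GFP + IL-1β, 0.910 and 0.555 CPM in Cre and 178 and 168 CPM in Cre + IL-1β. The untreated Mmp3 libraries overlapped between viruses and the treated ones did not. Its log2 response was weaker but large, at 7.81 ± 0.121 after Cre against 9.77 after GFP.

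The aggrecanases went apart. Adamts5 was 36.4 and 33.6 CPM in GFP, 76.7 and 65.2 CPM in GFP + IL-1β, 27.1 and 27.6 CPM in Cre and 16.9 and 13.7 CPM in Cre + IL-1β. IL-1β raised it in the GFP libraries and lowered it in the Cre libraries, with no overlap in either pair (-0.83 against 1.02 on the log2 scale, difference -1.85 ± 0.126, adjusted p = 1.6e-08). Adamts4, which overlaps a gene on the other strand, was 4.88 and 4.34 CPM in GFP, 6.81 and 8.21 CPM in GFP + IL-1β, 5.61 and 6.71 CPM in Cre and 15.1 and 12.3 CPM in Cre + IL-1β, and its responses of 1.17 after Cre and 0.68 after GFP did not differ by the test (adjusted p = 0.183). The rise of Adamts4 under GFP was not called without replicate 2 of GFP or of GFP + IL-1β. Mmp9, a gelatinase, rose by more after Cre (4.60 against 2.67), as did Adamts7 (3.22 against 1.75), while Timp1, a metalloproteinase inhibitor, rose by less (0.45 against 1.02). Ctsk, encoding the collagen-cutting cathepsin K, fell by more after Cre (-1.42 against -0.28).

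The loss of cartilage matrix transcripts persisted and was often deeper. Of 40 matrix genes tested, 33 fell and 3 rose after Cre, against 31 and 7 after GFP, with median log2 changes of -1.72 against -1.34. Of the 33 that persisted, 19 were stronger and 4 weaker. The difference was below 0 for 24 and above 0 for 3. With all 32 libraries in 1 fit, 24 fell and 1 rose after Cre, against 20 and 2 after GFP. Only 2 differences were then called, both below 0, and the medians were -1.77 against -1.34. Col2a1, the type II collagen chain, was 54145 and 55424 CPM in GFP, 21077 and 22057 CPM in GFP + IL-1β, 39227 and 39792 CPM in Cre and 12648 and 11749.6 CPM in Cre + IL-1β. It fell by 1.70 after Cre and by 1.34 after GFP on the log2 scale (adjusted p of the difference = 0.000511). Acan, encoding aggrecan, was 6986 and 6247 CPM in GFP, 1527 and 1424 CPM in GFP + IL-1β, 4332 and 4174 CPM in Cre and 809 and 829.9 CPM in Cre + IL-1β. The Acan response of -2.37 ± 0.0573 after Cre did not differ by the test from that after GFP, -2.16 (difference -0.21 ± 0.077, adjusted p = 0.063).

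Hapln1, Matn3, Epyc, Ogn and Cnmd were among the matrix genes whose fall was deeper after Cre. The differences of Col2a1, Ogn and Cnmd each lost their call in 1 alternative. Hapln1, the link protein that holds aggrecan to hyaluronan, was 774 and 751 CPM in GFP, 279 and 260.5 CPM in GFP + IL-1β, 479 and 477 CPM in Cre and 29.9 and 32.9 CPM in Cre + IL-1β. The lowest libraries were those of Cre + IL-1β, well below every other, and the log2 response was -3.93 ± 0.0684 after Cre against -1.500 after GFP (difference -2.43 ± 0.0872, adjusted p = 1.3e-11). Matn3, encoding matrilin-3, was 257 and 283 CPM in GFP, 46.1 and 48.4 CPM in GFP + IL-1β, 262 and 261 CPM in Cre and 15.2 and 13.1 CPM in Cre + IL-1β. Its untreated levels under the 2 viruses overlapped, and its log2 response was -4.19 after Cre against -2.52 after GFP. Log2 responses after Cre and GFP were -2.78 against -0.64 for the proteoglycan epiphycan (Epyc), -4.06 against -2.23 for osteoglycin (Ogn) and -3.32 against -2.11 for chondromodulin (Cnmd). Epyc overlaps a gene on the other strand, and the strand setting of the counting is not given in the sources used here.

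Among 38 chondrocyte transcription factors and hypertrophy genes tested, 25 fell after Cre and 23 after GFP, with medians of -0.74 against -0.69. Sox9, the main chondrocyte transcription factor, fell under both (-0.80 against -0.87, difference 0.07 ± 0.0863, adjusted p = 0.623). Its partner Sox6 fell by more after Cre (-1.995 against -0.89). The other partner, Sox5, was 57.1 and 63.7 CPM in GFP, 63.8 and 66.9 CPM in GFP + IL-1β, 46.2 and 45.9 CPM in Cre and 20.1 and 19.97 CPM in Cre + IL-1β. Sox5, which overlaps an antisense gene, fell after Cre and was not called under GFP (-1.20 against 0.12, difference -1.31 ± 0.107). Runx2, a driver of hypertrophy, fell by more after Cre (-0.62 against -0.28), and Col10a1, the collagen of hypertrophic cells, fell under both viruses (-1.83 against -2.14).

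Several rises seen under GFP were lost after Cre. Slc7a11, the cystine importer that feeds glutathione synthesis, was 38.98 and 41.8 CPM in GFP, 193 and 188 CPM in GFP + IL-1β, 36.6 and 33.9 CPM in Cre and 38.7 and 39.4 CPM in Cre + IL-1β. Only the GFP + IL-1β libraries stood high, and the Cre + IL-1β libraries lay within the range of the untreated ones. The log2 response was 0.14 ± 0.0711 after Cre (adjusted p = 0.111) against 2.24 ± 0.0673 after GFP, a difference of -2.10 ± 0.0972 (adjusted p = 2.52e-10). Slc16a1, the monocarboxylate transporter MCT1 that carries lactate, was 149.7 and 169 CPM in GFP, 346 and 388 CPM in GFP + IL-1β, 133 and 143 CPM in Cre and 141 and 132 CPM in Cre + IL-1β. Here too the GFP + IL-1β libraries stood alone (difference -1.22 ± 0.0917, adjusted p = 5.11e-08). Lox, the lysyl oxidase that crosslinks collagen and which overlaps a gene on the other strand, was 296 and 303 CPM in GFP, 828 and 846 CPM in GFP + IL-1β, 238 and 241 CPM in Cre and 239 and 256 CPM in Cre + IL-1β. The response of Lox was 0.05 against 1.48 on the log2 scale.

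Fem1a, a substrate receptor of a ubiquitin ligase, was 276 and 199 CPM in GFP, 951 and 1009.6 CPM in GFP + IL-1β, 54.4 and 54.3 CPM in Cre and 47.04 and 47.3 CPM in Cre + IL-1β. It was lower in every Cre library than in every GFP library before any response was compared, and its response was -0.20 against 2.06. Responses that fell under GFP could vanish as well. Nos1, the neuronal nitric oxide synthase, was 20.02 and 14.7 CPM in GFP, 1.86 and 2.10 CPM in GFP + IL-1β, 8.73 and 9.25 CPM in Cre and 9.81 and 8.81 CPM in Cre + IL-1β, so that the fall seen under GFP (-3.16 log2) had no counterpart after Cre (0.05 ± 0.156, difference 3.21 ± 0.241, adjusted p = 4.88e-08). Nos1 overlaps a gene on the other strand. Bdh1, an enzyme of ketone body metabolism, behaved likewise (0.11 against -1.78).

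**Figure D3:**
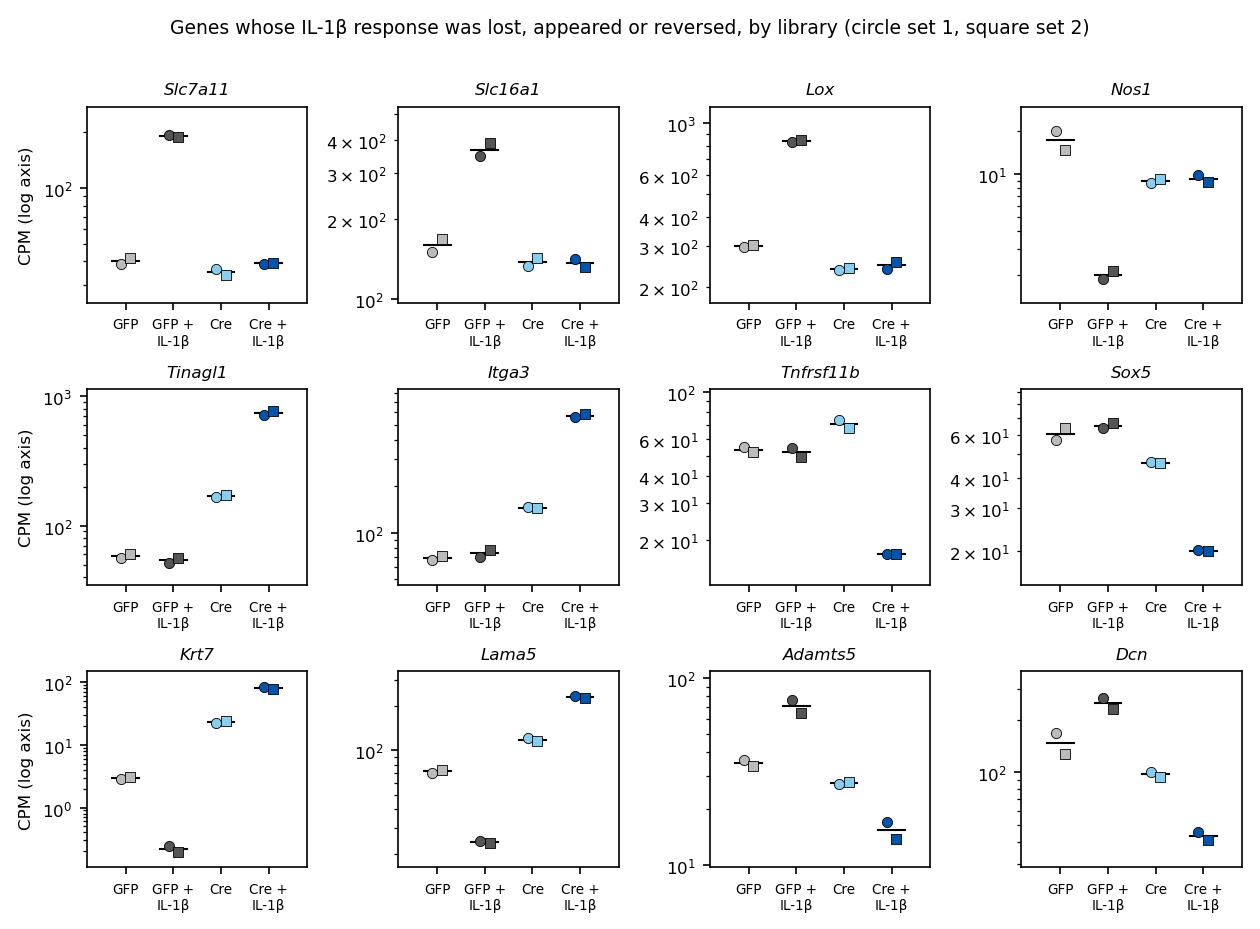
CPM in each of the 8 Ldha f/f libraries (points) with the group means (horizontal lines), on a log axis, for genes whose response was lost, appeared or reversed after Cre. Slc7a11 stands high in the GFP + IL-1β libraries alone, Tinagl1 in the Cre + IL-1β libraries, and Krt7 and Adamts5 move in opposite directions under the 2 viruses.

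Most redox enzymes rose under both viruses, and many of them by less after Cre. Of 47 tested, 33 rose and 5 fell after Cre, 32 rose and 3 fell after GFP, 15 persisted weaker and 4 stronger, the median log2 change was 0.47 against 0.85, and 22 differed below 0 against 7 above. Sod2, the mitochondrial superoxide dismutase, was 59.1 and 65.2 CPM in GFP, 405 and 417 CPM in GFP + IL-1β, 52.6 and 53.8 CPM in Cre and 119 and 129.8 CPM in Cre + IL-1β, a response of 1.22 against 2.73. Hmox1, encoding heme oxygenase 1, was 481 and 439.5 CPM in GFP, 1265 and 1271 CPM in GFP + IL-1β, 374 and 356 CPM in Cre and 427 and 415 CPM in Cre + IL-1β. Little of its rise was left, 0.21 ± 0.0548 against 1.46, and the call after Cre was lost without the set block (adjusted p = 0.0533) and without either Cre library (0.0734 and 0.0958). Gclc and Gclm, the subunits of the enzyme that begins glutathione synthesis, responded at 0.42 against 1.67 and 0.58 against 1.39, and Fth1, the ferritin heavy chain, at 2.16 against 2.99. The rise was lost for Nqo1 (0.07 against 0.63), Gss, Gpx1 and Ftl1 beside Slc7a11. A rise appeared for Sod1, the cytosolic superoxide dismutase (0.60 against -0.01). Of 9 NADPH oxidase genes, 2 rose after Cre, a share near the 24.7% of all genes, and 2 rose and 1 fell after GFP. Cyba was among those that rose after Cre (1.18 against 0.62), and the catalytic subunits Cybb and Nox4 were called under neither virus.

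Glycolysis genes kept part of their rise. Of 52 tested, 21 rose and 5 fell after Cre against 23 and 7 after GFP, with medians of 0.08 against 0.27. Of the 20 that persisted, 8 were weaker and 0 stronger. The difference was below 0 for 13 and above 0 for 5. With all 32 libraries in 1 fit, 4 rose and 1 fell after Cre, against 1 and 1 after GFP. The medians were then 0.04 against 0.29, and 2 differences were called, both above 0. Gapdh, Pgk1 and Pkm, of the lower part of the pathway, responded at 0.32 against 0.69, 0.42 against 0.78 and 0.69 against 0.98, and Slc16a3, the lactate exporter MCT4, at 1.23 against 1.99. Aldoa, the aldolase, and Slc2a1, the glucose transporter GLUT1, did not differ by the test (0.47 against 0.47 and 0.49 against 0.49), nor did Hk2, hexokinase 2 (0.45 against 0.63, adjusted p = 0.189). Slc2a1 overlaps a gene on the other strand. Ldhb, the other lactate dehydrogenase subunit, fell under both (-0.39 against -0.70). The rises of Pdk1, which restrains pyruvate dehydrogenase, and Pfkl, a phosphofructokinase, were lost, and a rise appeared for Pfkfb4 (1.86 against 0.23). In the pentose phosphate list 7 of 12 rose after Cre, among them Pgd (0.83 against 1.24) and G6pdx (0.16 against 0.32), whose call after Cre (adjusted p = 0.0373) was lost in 13 alternatives and which overlaps Ikbkg.

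Of 81 nuclear-encoded subunits of oxidative phosphorylation, 33 fell and 0 rose under GFP (18.6% and 19.3% of all genes), whereas after Cre 8 fell and 12 rose (21% and 24.7%). The median log2 change was -0.15 under GFP and -0.003 after Cre. The count under GFP depended on the fit as well. It was 15 falls and 0 rises without the set block, 18 and 1 without scaling factors and 3 and 0 with all 32 libraries. The split after Cre had no settled direction, with 2 falls and 19 rises without scaling factors, 16 and 5 with edgeR's own expression filter, 14 and 7 without Gm26917, 21 and 1 without Cre + IL-1β replicate 1, 12 and 5 without GFP + IL-1β replicate 1, 4 and 1 without Cre replicate 2, 2 and 1 without the set block and 3 and 0 with all 32 libraries. Leaving out the scaling factors moved the median of all genes by a like amount, to 0.10 after Cre and 0.07 after GFP. The interaction was called for 10 subunits, 9 above 0 and 1 below, against 10.7% and 10.5% of all genes, a share above 0 near that of all genes. Sdhb, of complex II, was among the 9 (-0.08 against -0.64). In the citrate cycle 6 of 22 genes rose and 4 fell after Cre, near the shares of all genes (24.7% and 21%), against 2 and 7 after GFP. Without Cre + IL-1β replicate 1 the counts after Cre were 5 and 7, and without Cre replicate 1 they were 4 and 0. Idh2, of that cycle, lost its fall (-0.06 against -0.53).

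Fewer interferon-stimulated genes rose with IL-1β after Cre than after GFP, from a higher untreated level. Their summed level was 581 to 600.01 CPM in GFP, 782 to 808 CPM in GFP + IL-1β, 869 to 900.2 CPM in Cre and 883 to 926 CPM in Cre + IL-1β, and the part of the untreated level in the smaller response was not tested. Of 53 tested, 10 rose and 11 fell after Cre (24.7% and 21% of all genes), against 28 and 2 after GFP (19.3% and 18.6%), with medians of -0.02 against 0.54. The split after Cre turned to 14 higher and 6 lower without scaling factors, 8 and 6 without the set block, 10 and 5 without Cre replicate 2 and 9 and 7 without Cre + IL-1β replicate 2. The difference was below 0 for 21 and above 0 for 0. With all 32 libraries in 1 fit only 2 rose and 3 fell after Cre, against 1 and 1 after GFP, and 2 differences were called, both below 0. The medians were then -0.07 and 0.54. Ifit1, which binds foreign RNA, reversed (-0.60 against 1.31), being 2.60 and 1.88 CPM in GFP, 5.33 and 5.96 CPM in GFP + IL-1β, 9.31 and 9.44 CPM in Cre and 7.83 and 4.51 CPM in Cre + IL-1β. In MHC class I presentation 17 of 23 genes rose after Cre and 13 after GFP (medians 0.89 against 0.54), but the difference was called above 0 for 3 and below 0 for 3, with a median of 0.019. Neither H2-K1 nor H2-D1, the classical class I heavy chains, differed by the test (1.38 against 1.36 and 1.13 against 1.16), and reads may be shared among such near-identical genes.

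In the prostaglandin and nitric oxide list 17 of 32 rose and 6 fell after Cre, against 16 and 8 after GFP (medians 0.37 against 0.39). Ptgs2, the inducible cyclooxygenase, rose by less after Cre (1.45 against 2.90), while Ptges, the prostaglandin E synthase downstream of it, did not differ by the test (4.23 against 3.97). Ptger4, a prostaglandin E2 receptor, lost its rise (-0.02 against 2.01). Nos2, the inducible nitric oxide synthase, had 2 reads in each GFP library, 2240 and 1179 in GFP + IL-1β, 6 and 0 in Cre, and 698 and 412 in Cre + IL-1β, and no fold is given because its untreated counts were at or near the floor of 3 reads.

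Stress and growth lists moved less evenly. Of 31 integrated stress response genes, 25 fell after Cre and 22 after GFP, the fall being larger after Cre by the median (-0.56 against -0.30) and for Atf4, its main transcription factor (-0.81 against -0.26), and Trib3, a target of ATF4 (-1.64 against -0.63). Among 19 heat shock genes 12 rose after Cre and 15 after GFP (medians 0.43 against 0.76). Hspa1b, an inducible Hsp70 gene near-identical to Hspa1a, averaged 107 CPM in GFP, 765 CPM in GFP + IL-1β, 12.9 CPM in Cre and 32.7 CPM in Cre + IL-1β. For the cell cycle, p53 and cholesterol lists the shares of all genes were 24.7% higher and 21% lower after Cre, and 19.3% and 18.6% after GFP. Of 57 cell cycle genes 21 rose and 13 fell after Cre, against 25 and 6 after GFP, and Ccnd1, the G1 cyclin D1, reversed (0.97 against -0.42). Among 36 p53 targets 17 rose and 8 fell after Cre, against 14 and 7. In the cholesterol list 11 of 35 rose and 9 fell after Cre (8 and 9 without Cre replicate 2), against 10 and 4, and falls appeared for the synthesis enzymes Cyp51, Msmo1 and Lss (-0.58 against -0.09, -0.39 against 0.13 and -0.50 against -0.05).

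**Figure D4:**
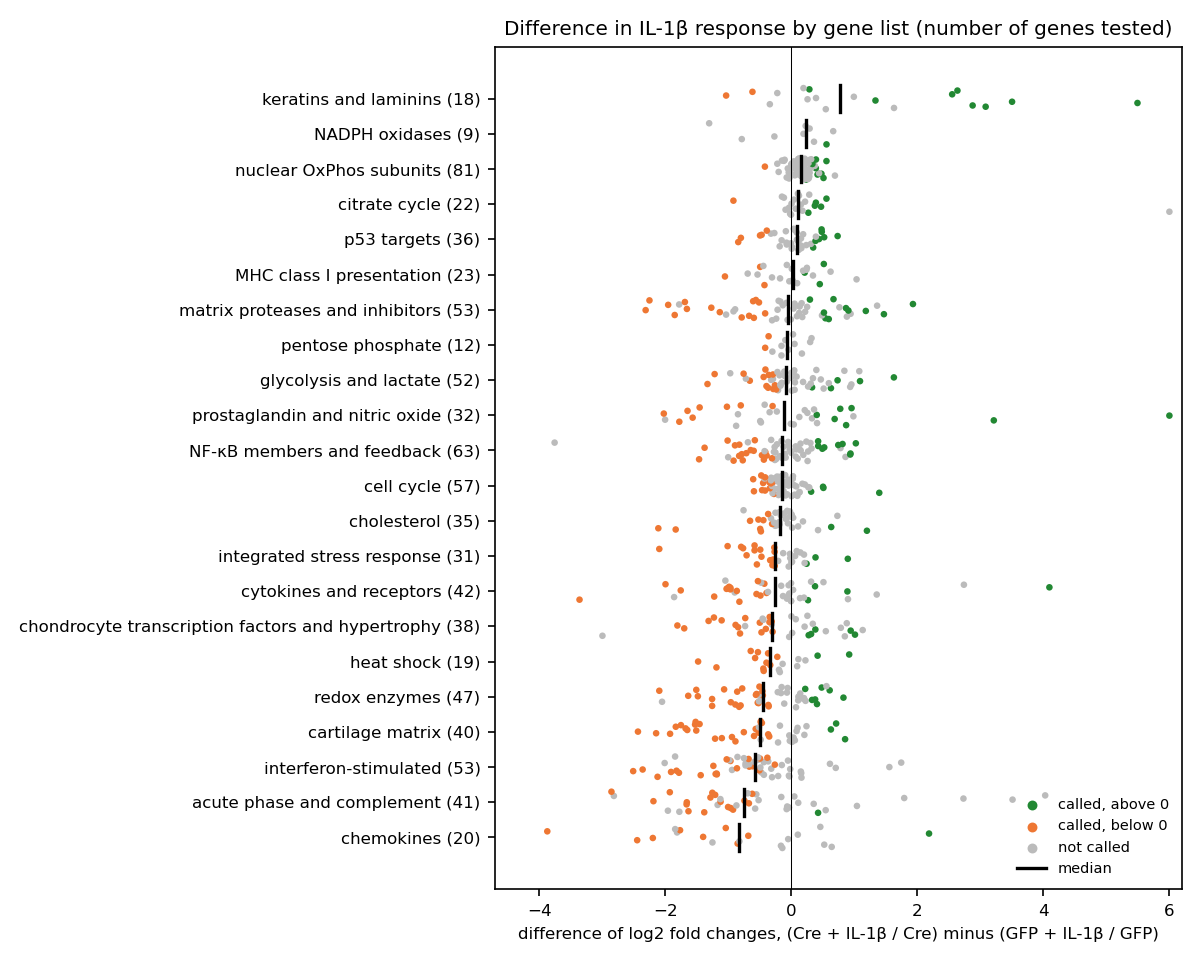
Difference of log2 IL-1β responses, Cre minus GFP, for each tested member of the 22 gene lists (points, green where called above 0, orange where called below 0, grey where not called), with the list median as a black line. Chemokines have the lowest median, -0.84, and keratins and laminins the highest, and 2 points beyond the axis are drawn at its edge.

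Appearing responses were called after Cre alone. Tinagl1, a secreted matricellular protein (chromosome 4, 130164454 to 130175122, minus strand), was 56.6 and 60.4 CPM in GFP, 51.6 and 56.5 CPM in GFP + IL-1β, 167 and 171 CPM in Cre and 716 and 760.2 CPM in Cre + IL-1β. The GFP groups lay close together, Cre libraries were higher without IL-1β, and Cre + IL-1β libraries were the highest. The log2 response was 2.13 ± 0.0553 after Cre and -0.12 after GFP (difference 2.24 ± 0.0792, adjusted p = 1.3e-11). Itga3, the integrin chain that binds laminin, was 66.5 and 70.3 CPM in GFP, 70.1 and 77.1 CPM in GFP + IL-1β, 146 and 144 CPM in Cre and 559 and 585 CPM in Cre + IL-1β, with responses of 1.98 against 0.10. Mcam, a cell adhesion molecule, and Col18a1, a basement membrane collagen, rose by 2.11 and 1.22 after Cre and were not called under GFP (-0.26 and 0.05).

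Falls appeared as well. Tnfrsf11b, encoding osteoprotegerin, the decoy receptor that restrains osteoclast formation, was 54.96 and 51.7 CPM in GFP, 54.04 and 49.5 CPM in GFP + IL-1β, 73.6 and 67.6 CPM in Cre and 17.2 and 17.2 CPM in Cre + IL-1β. The GFP groups overlapped and the Cre groups stood far apart (-2.04 against -0.04, difference -1.997 ± 0.106). Col5a2, a fibrillar collagen chain, and Adgrg6, an adhesion G protein-coupled receptor, fell by 1.04 and 1.81 on the log2 scale after Cre against -0.06 and 0.12 under GFP. Cth, which makes cysteine from cystathionine, responded at -1.497 against 0.00.

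In reversed responses IL-1β moved a gene 1 way under GFP and the other way after Cre. Of 18 keratin and laminin genes tested, 12 rose and 3 fell after Cre, whereas 6 rose and 8 fell after GFP, and 6 reversed. That list was drawn up with results of these libraries known, and its counts are not independent evidence of a direction. Krt7, a keratin of simple epithelia, was 2.87 and 3.09 CPM in GFP, 0.246 and 0.196 CPM in GFP + IL-1β, 22.8 and 23.97 CPM in Cre and 85.4 and 79.2 CPM in Cre + IL-1β, the GFP + IL-1β values resting on 9 and 4 reads. IL-1β lowered it in both GFP libraries and raised it in both Cre libraries, a log2 response of 1.82 ± 0.084 against -3.68 ± 0.264 (difference 5.49 ± 0.262, adjusted p = 3.48e-10). Its partners Krt8 and Krt18 moved the same way (2.33 against -1.17 and 2.33 against -0.76). Krt7 overlaps a gene on the other strand.

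Lama5, a laminin chain of basement membranes, was 70.6 and 73.9 CPM in GFP, 24.2 and 23.6 CPM in GFP + IL-1β, 121 and 116 CPM in Cre and 235 and 225 CPM in Cre + IL-1β. The 4 groups did not overlap, and the response was 0.96 ± 0.0578 after Cre against -1.59 ± 0.0651 after GFP (difference 2.55 ± 0.0871, adjusted p = 1.3e-11). Lamb3, the β3 chain of a laminin, and Bcam, a laminin receptor, rose after Cre and fell after GFP (2.13 against -0.51 and 1.14 against -1.95). The opposite turn was taken by Gja1, encoding connexin 43, which was 278 and 264 CPM in GFP, 626 and 604 CPM in GFP + IL-1β, 239 and 236 CPM in Cre and 156 and 154 CPM in Cre + IL-1β. It rose by 1.18 under GFP and fell by 0.62 after Cre on the log2 scale. Dcn, the small proteoglycan decorin, did the same, at 167 and 127 CPM in GFP, 265 and 230.3 CPM in GFP + IL-1β, 101 and 93.5 CPM in Cre and 45.8 and 40.9 CPM in Cre + IL-1β (-1.17 against 0.76).

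Some persisting responses were larger after Cre. Glul, the glutamine synthetase, which overlaps a gene on the other strand, was 12.01 and 12.2 CPM in GFP, 15.5 and 15.9 CPM in GFP + IL-1β, 17.95 and 14.5 CPM in Cre and 94.01 and 91.1 CPM in Cre + IL-1β. The Cre + IL-1β libraries stood far above the other 6 (response 2.504 against 0.37). The small rise of Glul under GFP was no longer called without GFP replicate 1 (0.31, adjusted p = 0.108) or GFP + IL-1β replicate 2 (0.31, 0.0997). Axl, a receptor tyrosine kinase, responded at 1.33 against 0.36. Among genes that fell, Tox, an HMG-box nuclear factor, fell further after Cre (-3.33 against -0.95), while Wscd2 and Cdkn1c, an inhibitor of cyclin-dependent kinases, fell by less (-0.58 against -2.84 and -0.40 against -1.63).

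Nampt f/f chondrocytes received the same viruses and gave a reference for Cre virus with a different floxed gene. Nampt encodes the enzyme that limits NAD salvage. Ldha in Nampt f/f was 990.2 and 942 CPM in GFP, 1444 and 1366 CPM in GFP + IL-1β, 1064 and 1010.3 CPM in Cre and 1160.1 and 1078 CPM in Cre + IL-1β, with no drop in the Cre libraries of the size seen in Ldha f/f. In 1 fit of the 16 libraries, 3837 of 16491 genes differed in response between Cre and GFP in Ldha f/f (23.3%) and 5178 in Nampt f/f (31.4%). Of the 3837, 98.0% had the same sign of difference in Nampt f/f (76.1% of all genes) and 3036 (79.1%) were also called there with that sign. Across the 16491 genes the Pearson correlation of the differences was 0.59, a description over genes, which are not independent replicates. The test of the difference between the lines, Ldha f/f minus Nampt f/f, called 9 genes (0.0546%), with 1396 at an unadjusted p of 0.05 or less. Its median SE was 0.247 log2 over all genes and 0.175 over the 10849 genes above 5 CPM.

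Named differences mostly had the same sign in both lines, and the test between lines called few of them. For Slc7a11 the difference between Cre and GFP responses was -2.08 in Ldha f/f and -2.47 in Nampt f/f (adjusted p of the contrast between lines = 0.449), for Hapln1 -2.42 and -2.27 (0.748), for Slc16a1 -1.20 and -1.22 (0.987), for Lama5 2.57 and 2.39 (0.707) and for Krt7 5.51 and 4.26 (0.7). Inflammatory genes gave -1.36 and -1.13 for Nfkbiz (0.723), -1.74 and -3.45 for Il6 (0.526), -1.94 and -2.93 for Mmp3 (0.531) and -1.64 and -1.09 for Mmp13 (0.0706). A p above the threshold does not show that the lines responded equally, and the SE of the contrast was 0.115 for Mmp13, 0.142 for Slc7a11 and 0.721 for Il6.

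The 9 genes that did differ between lines included Ldha, whose IL-1β response was lowered by Cre by more in Ldha f/f (-1.31) than in Nampt f/f (-0.43, adjusted p = 8.01e-06). Tnfrsf11b, encoding osteoprotegerin, had differences of -1.98 and -2.99 (0.00329), and Pappa, a protease that frees insulin-like growth factors from a binding protein, -1.54 and -2.44 (0.00289), both smaller in size in Ldha f/f. Zbtb20, a zinc finger repressor, and Malat1, a nuclear long noncoding RNA, also differed by less in Ldha f/f (-0.79 and -1.45, -0.30 and -0.76). Cd82, a tetraspanin, had 0.80 and 1.64. Kcnq1ot1, a noncoding RNA that overlaps Kcnq1 on the other strand, was the only one of these 7 whose values had opposite signs (0.20 and -1.07, 4.04e-07). Cyp1b1, a cytochrome P450, and Stard13, a GTPase-activating protein, which fall outside the rule for named genes and were chosen after their values were seen, had -0.995 and -1.57, and -0.09 and -0.82.

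**Figure D5:**
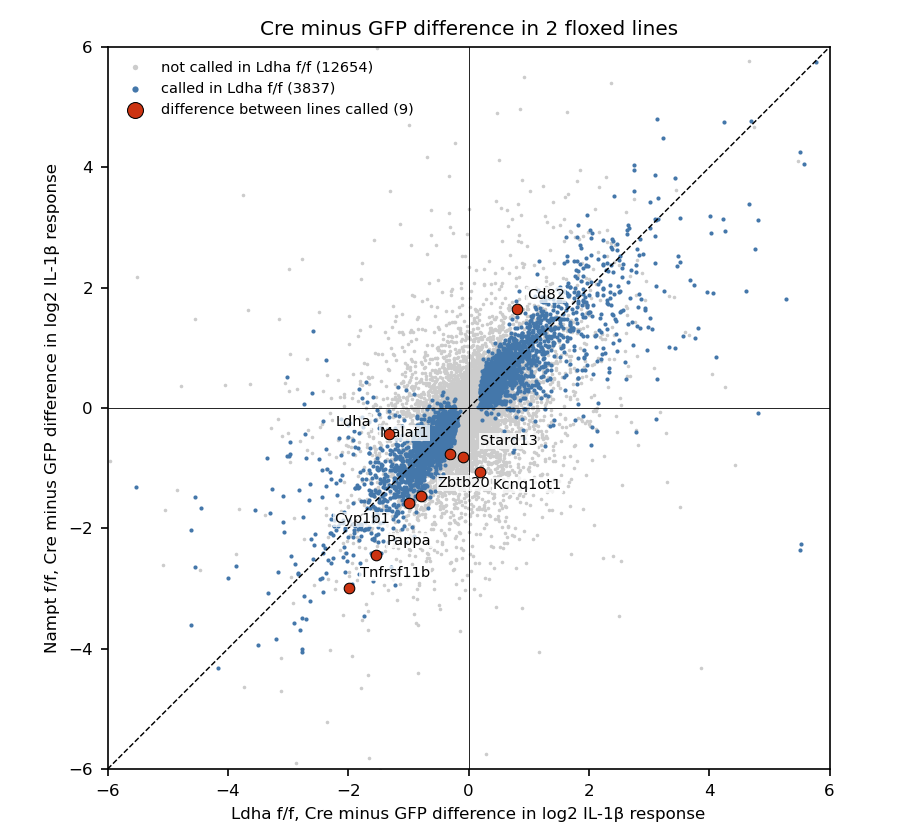
Difference in log2 IL-1β response, Cre minus GFP, of each gene in Ldha f/f (horizontal axis) and Nampt f/f (vertical axis) in the 16-library fit, with the 3837 genes called in Ldha f/f in blue, the 9 called by the test between lines in red and the diagonal marking equal differences. The cloud follows the diagonal, with a Pearson correlation of 0.59 over 16491 genes, Ldha lies to the left of it at -1.31 and -0.43, and 34 genes lie beyond the axes.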

How the data were processed

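RNA was sequenced from 32 libraries of primary chondrocytes in 16 conditions, and 16 libraries are used here: Ldha f/f and Nampt f/f, each with GFP or Cre virus, with or without IL-1β, 2 libraries a condition. Per the labels and the study's methods, ribosomal RNA was depleted, reads were aligned to Ensembl release 76 (GRCm38) with STAR, and reads mapping uniquely and unambiguously were counted per gene with featureCounts; the submitters' processing notes give STAR 2.0.4b and featureCounts 1.45. The strand setting of the counting is not given in the sources used here. The deposited count is the raw number of reads per gene and was the value tested. The deposited CPM equalled count over library total in all 32 libraries (tolerance 1e-6) and served only for that check. Levels quoted in the text are CPM computed from the counts of the genes tested after TMM scaling. The deposited RPKM, which the authors also scaled by gene length, was not used. No column of per-sample values was left out (0).

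Genes above 1 CPM in at least 1 library were tested, 355 ribosomal RNA genes aside: 15880 in the 8 Ldha f/f libraries (18237872 to 36421810 counts each) and 16491 in 16. GENCODE M21 named 40340 of 41388 gene identifiers. Both IL-1β responses and their difference came from 1 edgeR 4.0.16 quasi-likelihood fit (R 4.3.3, TMM scaling, 4 groups, library set as a block, 3 residual degrees of freedom, two-sided, Benjamini-Hochberg adjusted p of 0.05 or less over all genes tested). SEs are the log2 change over the square root of F. The test between lines used 16 libraries with line by set as the block. Sets 1 and 2 follow the style of the sample titles; deviations of same-set libraries from their group means correlated at 0.206 to 0.382 in all 6 pairs of conditions, so the sets were treated as pairs. No pair of libraries held identical counts (0 pairs). Scripts were tested on simulated counts.

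Named genes were those the study names, the 10 most significant Cre responses in each direction, the 8 smallest interaction p in each class and direction at 5 CPM or more, list members called in the Cre contrast or the interaction, and the 5 smallest p in each direction between lines; predicted genes were counted and not named. The response and all gene lists were chosen with earlier results of these data known, and the pentose phosphate and keratin and laminin lists were added to those named in the design. Of 112 genes followed under every alternative, 30 overlap a gene on the other strand, whose reads cannot be told apart without strand. Alternatives were DESeq2 1.42.0, limma 3.58.1 (voomWithQualityWeights), other scaling and filters, no set block, all 32 libraries, and leaving out each library. Promoters are RefSeq sequences (GRCm38.p6), used where the RefSeq and GENCODE starts lay within 500 bases. Figures were drawn with matplotlib 3.10.9.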

Additional observations from a re-analysis of the deposited data

Results flagged for a closer look

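The response to IL-1β differed between Cre and GFP libraries of Ldha f/f for 3374 genes by the interaction test. For 9 genes this difference was itself unlike that of Nampt f/f (values are Ldha f/f minus Nampt f/f, log2). It was above 0 for Kcnq1ot1 (1.27), Tnfrsf11b (1.00), Pappa (0.90), Stard13 (0.73), Zbtb20 (0.67), Cyp1b1 (0.58) and Malat1 (0.46), and below 0 for Ldha (-0.88) and Cd82 (-0.85). The Malat1 difference within Ldha f/f was not called without the set block, without Cre replicate 1 or with all 32 libraries.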

How the results depend on the processing

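No called value of the 112 genes followed under the alternatives turned direction in any run. List members outside these 112 were not followed singly, also where the text names them. For single genes, 5695 values kept their call, 196 lost it, 137 of them with all 32 libraries in 1 fit, and 45 gained one. Counts of list members called after Cre were run under every alternative, those beyond DESeq2 and the replicate block chosen after seeing the data; 490 stayed within 1.5 times and 32 did not, 22 of the 32 with all 32 libraries. DESeq2 called 247 reversed genes against 371 and gave no adjusted p for 308 differences; 6073 of the 7269 Cre calls were shared with it. Limma called 7525 genes after Cre, 6510 after GFP and 3720 differences. Without the replicate block, that is without the pairing of library sets, the difference was called for 1825 genes (936 higher, 889 lower), with 382 lost, 709 appearing and 197 reversed, while 5693 Cre calls, 4424 GFP calls and 2752 persisting genes remained. With all 32 libraries in 1 fit, 3129 genes were called after Cre (1455 higher, 1674 lower), 1414 after GFP (724 and 690) and 312 for the difference (170 and 142), giving 767 persisting, 51 lost, 209 appearing and 21 reversed genes; the cause was not tested. The test between lines called 0 genes without the block and 30 with DESeq2, against 9 with 1396 at an unadjusted p of 0.05 or less. Leaving out 1 library gave 5199 to 7356 Cre calls (2812 to 3984 higher, 2387 to 3625 lower), 3997 to 6638 GFP calls (2113 to 3533 and 1884 to 3105) and 2156 to 3473 differences (902 to 1555 and 1095 to 1918), with 2709 to 3715 persisting, 385 to 812 lost, 767 to 1124 appearing and 204 to 377 reversed. The lowest came without GFP + IL-1β replicate 1 (GFP 3997, difference 2156, lost 385, reversed 204), Cre replicate 1 (difference 2195, appearing 780, reversed 228), Cre replicate 2 (difference 2243, appearing 767, reversed 246) and GFP + IL-1β replicate 2 (lost 418, reversed 227). Where this leaves 1 library in a group, that library is assumed to vary like the other groups. Without scaling factors the median of all genes was 0.10 after Cre and 0.07 after GFP, and 63.8% and 61.8% of calls were higher. The share of differences above 0 was 40.7% with edgeR's own expression filter and 41.3% without Gm26917, against 50.5%. The Acan difference was called with limma, with either other filter, without Gm26917 (-0.26), without GFP replicate 1 and without Cre + IL-1β replicate 2. The fit on the 4 libraries of 1 virus gives no difference and so no classes. With 2 libraries a group, small differences in genes of few reads were not detectable.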
